A study of Mus musculus with 2 samples.

Results

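Aquaporins are membrane proteins that form pores for water, and a subset of them, the aquaglyceroporins, also let glycerol and other small solutes through. The 7 aquaporin genes described here are Aqp1, Aqp3, Aqp4, Aqp7, Aqp8, Aqp9 and Aqp11. Each was taken from the array where a probe set's platform annotation names that gene alone, and each had 1 such probe set. They are 7 of 22180 genes measured in this way, and the other 5 mouse aquaporin genes on the array are given beside them. The family was selected on measured values, since the lower Aqp8 signal on the psyllium array was already known, so the differences of its members are a description.

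In the colon water follows absorbed salt through the surface epithelium, partly through cells and partly between them. Aqp8 and Aqp4 are water channels of colonic surface cells, Aqp3 is an aquaglyceroporin of the basolateral membrane, and Aqp1 is the water channel of capillary endothelium and red cells. Psyllium is a seed-husk fibre that forms a gel and holds water in the gut lumen.

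RNA came from the colons of healthy male ICR mice, an outbred stock, aged 7 weeks. One group ate a control diet without psyllium, and the other ate a diet of which psyllium was 10%. Both diets were given for 5 days. Biotin-labelled RNA was hybridised to 1 whole-transcript array per diet. How many mice gave RNA to each array, and which stretch of colon was taken, are not given in the sources used here. With 1 array a diet there is no replicate check, so no p-value or standard error exists, and the number of arrays limits the precision of every value.

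Levels are normalised intensities on a linear scale. A difference is log2 psyllium minus log2 control. A gene passes the intensity filter when the brighter of its values reaches 69.5, the median of that quantity over all genes, which leaves 11090 genes. Among them the median difference was -0.04 with an SD across genes of 0.33, and a gene was counted as higher or lower at 1.5-fold. Of these genes 93.6% lay within 1.5-fold, 2.43% were lower by at least as much and 4.02% were higher. These shares are to be set beside the counts of each gene list below. All 22 listed genes of colonic surface cells passed the filter, with control intensities from 340.7 to 10531, and 10 of them were lower with psyllium by 1.5-fold or more. Carbonic anhydrase Car1 gave 10100 and 7791, whereas Clca4b gave 340.7 and 82.3, near the filter. In whole-tissue RNA, fewer cells of a type and less RNA per cell cannot be told apart.

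The surface water channels Aqp8 and Aqp4 were lower on the psyllium array, and no member was 1.5-fold higher. Of the 7 members 4 passed the filter, namely Aqp1, Aqp4, Aqp8 and Aqp11. Of these 2 were at least 1.5-fold lower, where 2.43% of all genes past the filter were lower by as much. Aqp8 is 1 of these 2. Its lower signal was known when the family was selected, and it passed the filter through the control array alone. The counts and medians here are therefore a description and no test of the family. None of the 4 was at least 1.5-fold higher, where 4.02% of all genes were. Over all 7 members 4 differences were negative and 3 positive, with a median of -0.20, beside -0.0025 over all 22180 genes. Over the 4 past the filter the median was -0.62, and of them only Aqp1 had a positive difference. The positive differences of Aqp3 and Aqp9 came from values below the filter's intensity. A single gene, Aqp8, had a difference far larger than the rest.

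**Figure D1:**
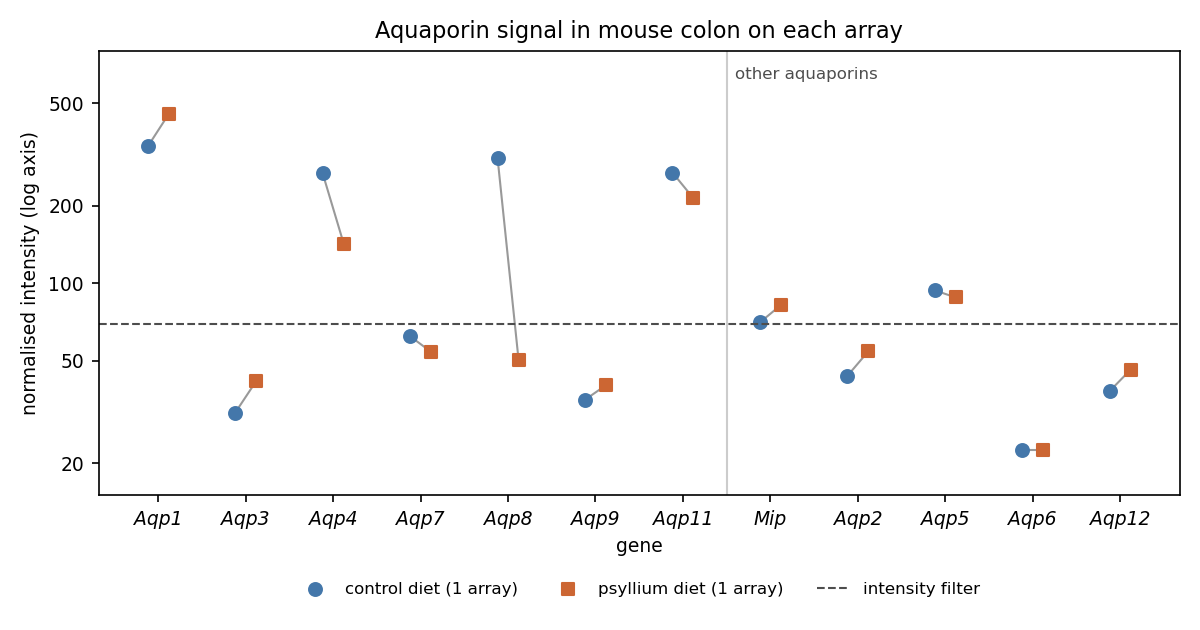
Normalised intensity (log axis) of the 7 aquaporin members and the other 5 mouse aquaporin genes on the control array (circles) and the psyllium array (squares), with the intensity filter of 69.5 as a dashed line. Aqp8 crosses the line from 306.5 to 50.5, and Aqp4 is lower at 142.7 against 267.2. Heights of different genes come from different probes and are not to be set against each other.

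Aqp8 is a water channel that also passes ammonia and hydrogen peroxide, and in the colon it is a gene of mature absorptive cells. Its intensity was 306.5 with the control diet and 50.5 with psyllium, so that 16.5% of the control signal was left. The difference was -2.60, or 6.07-fold lower. Among the 11090 genes it had the third most negative difference. The 2 genes below it were the potassium channel gene Kcnma1 and the carboxylesterase Ces2a, both named here after their values were seen. Kcnma1 has 2 probe sets, and its place rests on the one with the highest mean. The control signal stood above 84.2% of all genes on its array and the psyllium signal above 42.6% on its own. Aqp8 passed the filter through the control array alone. With its psyllium value raised to 69.5, a limit chosen after its values were seen, it was 4.41-fold lower (a difference of -2.14).

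Part of the Aqp8 promoter is shown since this gene has the largest difference of the family, and that of Aqp1 since it is the member past the filter with a positive difference. Both are from RefSeq on GRCm38.p6 and run, 5′ to 3′ on the plus strand, from 200 bases before the annotated start to 10 bases after it. The Aqp8 stretch is chr7:123462094-123462303 and that of Aqp1 is chr6:55336099-55336308. Capitals mark matches to any of 5 motifs, which were chosen after the sequences were seen. These were TATAAA (the TATA box), TTTATTG (letters of the caudal homeobox factors Cdx1 and Cdx2), CACGTG (an E-box), AGGTCA (the core letters of nuclear receptor sites) and GGGCGG (a GC box).
Aqp8: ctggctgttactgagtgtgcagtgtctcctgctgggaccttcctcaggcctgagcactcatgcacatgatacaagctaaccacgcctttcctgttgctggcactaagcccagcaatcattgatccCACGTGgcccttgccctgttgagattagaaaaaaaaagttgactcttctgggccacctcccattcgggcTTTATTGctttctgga
Aqp1: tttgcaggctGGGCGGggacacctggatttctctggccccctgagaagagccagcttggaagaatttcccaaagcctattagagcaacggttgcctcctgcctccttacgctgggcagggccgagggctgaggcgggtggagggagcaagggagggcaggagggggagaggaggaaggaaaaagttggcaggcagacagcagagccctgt

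The motifs were searched on both strands of the RefSeq windows, which run from 250 bases before each start to 50 after it, and no matches overlapped in these 2 windows. Aqp8 held CACGTG 75 bases before the start, a motif in 7.15% of all 32851 windows, and TTTATTG 6 bases before it, a motif in 4.60%. Aqp1 held GGGCGG 190 bases before the start, a motif in 35.7% of windows. Neither held TATAAA (13.6% of windows) or AGGTCA (16.3%). The Aqp8 window was 52% G and C with 6 CpG, and that of Aqp1 62.7% with 8, beside medians of 52.7% and 7 over all windows. A match describes letters and is no evidence that a factor binds there.

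Aqp4 is a water-selective channel of the basolateral membrane, known best from the end-feet of astrocytes and also present in glia and surface epithelium of the gut. Its intensity was 267.2 with the control diet and 142.7 with psyllium. The difference was -0.91, or 1.87-fold lower, and both values were above the filter. It ranked 75th from the most negative of 11090 genes. Aqp4 and Aqp8 thus both lay on the low side, but the difference of Aqp8 was the larger by far.

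Aqp11 is an unorthodox aquaporin of the endoplasmic reticulum. It gave 269.2 with the control diet and 213.9 with psyllium, a difference of -0.33. This is 1.26-fold and inside the 1.5-fold limits. At 1122nd from the most negative difference, it lay in a part of the range with many other genes.

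Aqp1 gave 340.1 with the control diet and 454.6 with psyllium. Its difference of 0.42, or 1.34-fold higher, also lay inside the limits and ranked 805th from the most positive. It was the only member past the filter with a positive difference.

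The aquaglyceroporins Aqp3, Aqp7 and Aqp9 were dim on both arrays and did not pass the filter. Aqp3 gave 31.5 with the control diet and 41.7 with psyllium, a difference of 0.41. Aqp7, which lets glycerol out of fat cells, gave 62.3 and 54.1, a difference of -0.20. Aqp9, a glycerol and urea channel of liver and white blood cells, gave 35.3 and 40.2, a difference of 0.19. None of the 3 differed by 1.5-fold, and all 6 values lay below the filter's intensity. A dim probe set does not show that the transcript was absent.

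**Figure D2:**
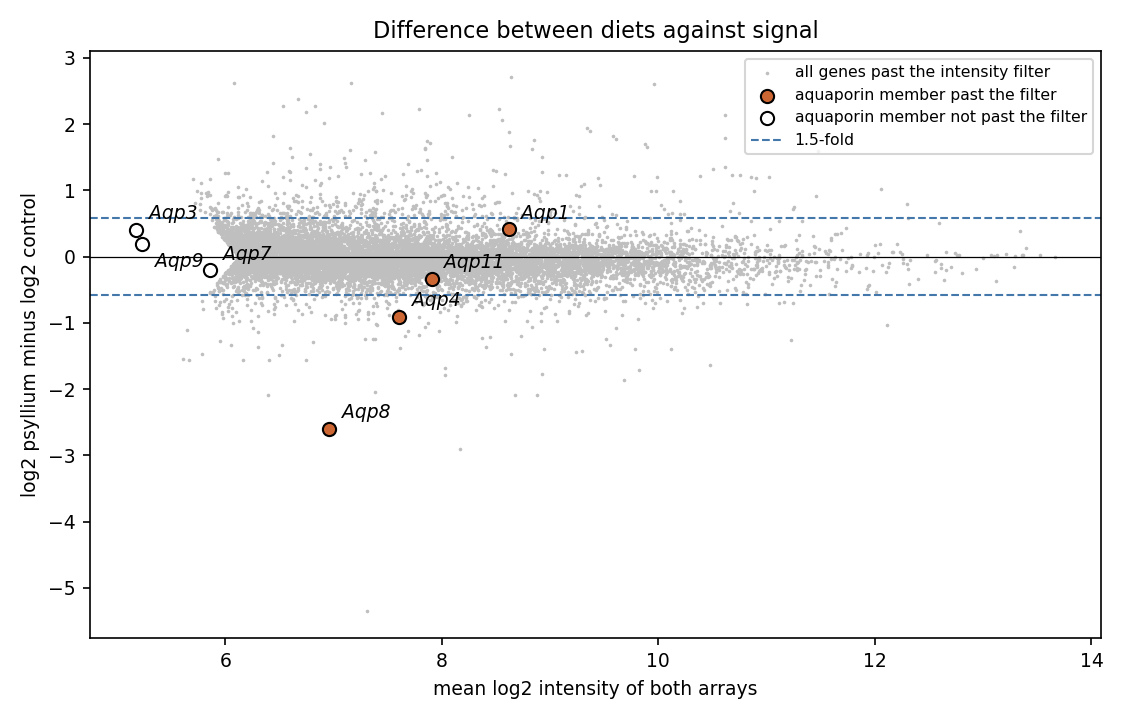
Log2 difference between the diets (psyllium minus control) against the mean log2 intensity of both arrays for the 11090 genes past the filter (grey) and the 7 aquaporin members (large circles, open where not past the filter). Dashed lines mark 1.5-fold. Aqp8 at -2.60 and Aqp4 at -0.91 lie below the lower line and the other 5 members lie between the lines.

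The other 5 mouse aquaporins were all within 1.5-fold, as were 93.6% of all genes past the filter. Mip, the aquaporin of the eye lens, gave 70.5 and 82.3 (a difference of 0.22), and its second probe set differed by 0.18. Aqp5, the water channel of exocrine glands, gave 93.9 and 88.1 (-0.09). These 2 passed the filter. Aqp2, the vasopressin-regulated channel of the kidney collecting duct, gave 43.7 and 54.4, Aqp12, of the pancreas, 38.1 and 46.2, and Aqp6 the same value, 22.5, on both arrays. No aquaporin outside Aqp8 and Aqp4 therefore reached 1.5-fold on these arrays.

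The genes with a difference closest to that of Aqp8 were the next most negative ones. Likeness was the gap between the log2 differences, which with 2 arrays is the only measure of pattern there is. The 4 closest genes were Ces2a (a gap of 0.30), the epithelial envelope gene Sprr1a (0.51), the sugar phosphate transporter Slc37a2 (0.52) and Clca4a (0.52). They went from 784 to 105, from 173.7 to 40.8, from 841 to 198.3 and from 969 to 228.9. Sprr1a, like Aqp8, passed the filter through the control array alone. Clca4a has 2 probe sets, whose mean difference was only -1.13. Ces2a and Clca4a have close relatives, so their values are uncertain where probes bind more than one gene.

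The genes closest to Aqp4 were of several kinds. The 4 were Ms4a18 (a gap of 0.0064), Prap1 (0.0075), the B cell chemokine Cxcl13 (0.011) and the defensin Defa24 (0.014). Defa24, at 86.7 and 45.9, passed the filter through the control array alone. Many genes have differences of this size, and such small gaps single out none of them.

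Surface colonocyte genes were lower with Aqp8 and Aqp4. Of 22 such genes, none of them an aquaporin, 10 were lower by 1.5-fold or more, where 2.43% of all genes past the filter were. Of the 22 differences 21 were negative. None of the genes was higher by 1.5-fold. Their median was -0.57, beside -0.04 over all genes past the filter. After Ces2a, Slc37a2 and Clca4a the most negative was Clca4b, at 340.7 and 82.3 (4.14-fold lower). The difference of Aqp8 was more negative than that of 21 of the 22, and that of Aqp4 lay within their range of -2.90 to 0.07. The list was drawn up with earlier results of these arrays known, so its direction is not separate evidence.

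General epithelial genes moved less. All 18 had negative differences, from -0.57 to -0.01, with a median of -0.27. None reached 1.5-fold, and 93.6% of all genes past the filter lay within it. The keratin gene Krt8, the brightest of them, gave 3298 and 3233. The summed intensity of the list was 26098 with the control diet and 22619 with psyllium. The part of epithelial content in the lower Aqp8 and Aqp4 signal was not tested.

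Smooth muscle genes went the other way. Of 13 genes 12 were higher by 1.5-fold or more, where 4.02% of all genes past the filter were. None was lower, and the median was 1.19. The enteric actin Actg2 gave 745 and 3293, the intermediate filament genes Synm 205.5 and 758 and Des 845 and 2915, and the actin-binding Cald1 522 and 1692. Their summed intensity was 13628 with the control diet and 32579 with psyllium. The part of wall tissue in the aquaporin differences was not tested.

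Endothelial genes, which mark the cells best known for Aqp1, lay within 1.5-fold, as did 93.6% of all genes past the filter. Of 14 measured genes 10 passed the filter. Over the 14 the median was -0.01 with a range from -0.27 to 0.48, and 6 differences were positive and 7 negative. Over the 10 past the filter the median was 0.03. The junction gene Cdh5 gave 321.6 and 363.8. Their summed intensity was 1753 with the control diet and 1915 with psyllium. The difference of Aqp1, 0.42, lay inside that range. Of 9 listed red cell genes 2 were measured, and both were dim. The anion exchanger Slc4a1 gave 27.4 and 28.3, and the median of both was 0.06. The other 7, the globin genes among them, were not measured by a probe set naming 1 gene. The part of blood in the Aqp1 difference was not tested.

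Glial genes, for the other gut source of Aqp4, had a median of 0.02 over the 6 measured of 9. Only 3 of the 6 passed the filter. None reached 1.5-fold, and 93.6% of all genes past the filter lay within it. The brightest was Erbb3, at 2126 and 1547, a receptor that the epithelium also makes. The glial markers S100b, Sox10 and Gfap were dim, below the filter on both arrays. The part of glia in the Aqp4 difference was not tested.

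**Figure D3:**
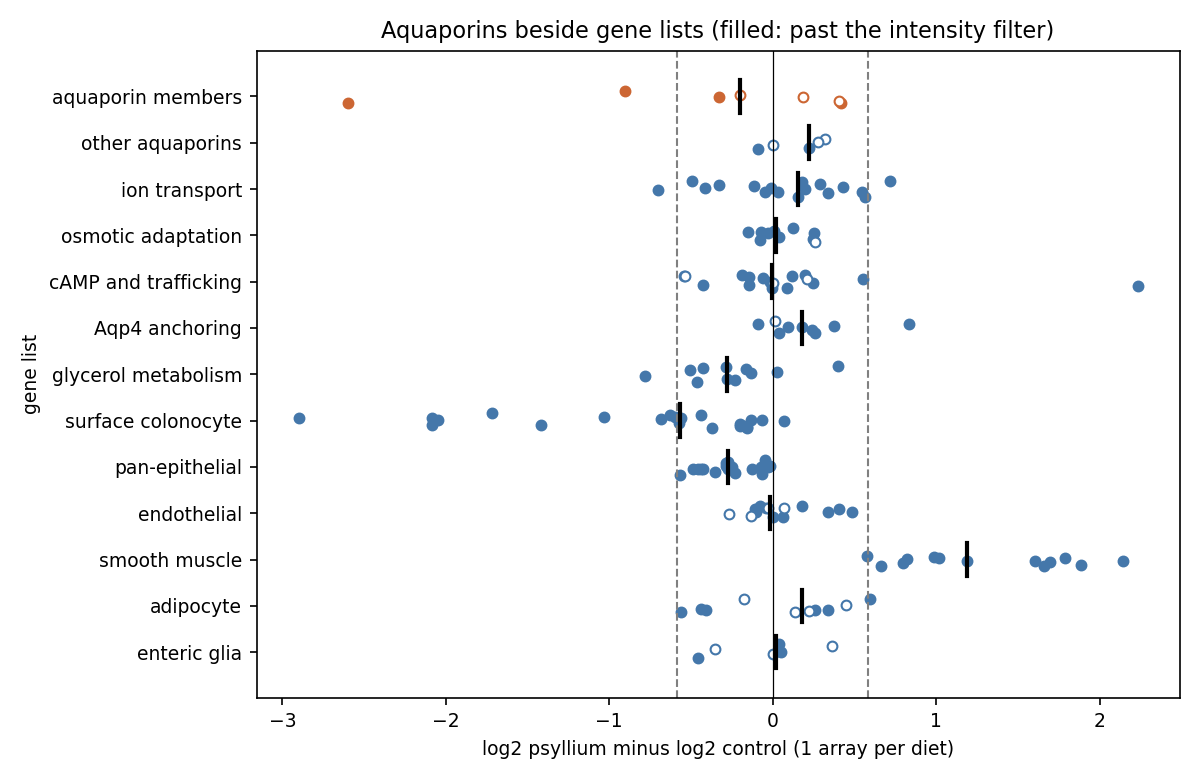
Log2 difference (psyllium minus control) of each measured gene in the aquaporin family and in 11 further gene lists, 1 point a gene (filled where past the intensity filter), with the list median as a black bar and 1.5-fold as dashed lines. Surface colonocyte genes spread to the left with a median of -0.57, smooth muscle genes lie to the right with a median of 1.19, and endothelial genes centre near 0.

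Ion transport genes, which set the salt gradients that water follows, had members on both sides. Of 17 measured genes, all past the filter, 1 was at least 1.5-fold higher and 1 lower, with a median of 0.15. Among all genes past the filter 4.02% were higher and 2.43% lower by as much, so these counts single out no change of the list. The apical sodium-proton exchanger Slc9a3 was lower, at 1201 and 738 (1.63-fold). The sodium channel subunit Scnn1b was higher, at 61.4 and 101.1 (1.65-fold), with its control value below the filter. The chloride-bicarbonate exchanger Slc26a3, named after its value was seen, gave 2679 and 2134, inside the limits.

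Genes of the response to osmotic stress lay within 1.5-fold, as did 93.6% of all genes past the filter. Of 10 measured genes 9 passed the filter. Over the 10 the median was 0.02, and differences ran from -0.15 to 0.26. Slc38a2, an amino acid carrier induced by hypertonic medium and the brightest of the list, gave 1067 and 1011. Nfat5, the transcription factor that drives this response, gave 472.4 and 450.2.

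Genes of cyclic AMP signalling and vesicle trafficking, which move some aquaporins to the cell surface, had a median of -0.0025. Of 17 genes 14 passed the filter. Of these 1 was at least 1.5-fold higher, where 4.02% of all genes past the filter were, and none was lower by as much. This was Vip, the enteric neuropeptide that raises cyclic AMP in epithelium, at 170 and 799 (4.70-fold higher). Its receptors Vipr1 and Vipr2 differed by -0.54 and 0.55, both inside the limits, and are named as the partners of Vip after their values were seen. The vasopressin receptors Avpr1a, Avpr1b and Avpr2 did not pass the filter. Smooth muscle genes had a median difference of 1.19, and the part of wall tissue in the Vip difference was not tested.

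Genes of the dystrophin complex and other partners that hold Aqp4 in the membrane had a median of 0.18 over the 9 measured of 10. The complex member dystrobrevin alpha, Dtna, gave 125.0 and 222.8 (1.78-fold higher). It was the 1 gene past 1.5-fold among the 8 that passed the filter. Among all genes past the filter 4.02% were higher by as much as 1.5-fold, so a count of 1 singles out no change of the list. Smooth muscle genes had a median difference of 1.19, and their part in these differences was not tested. Of the 9 genes 8 had positive differences, beside -0.91 for Aqp4.

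Glycerol and triglyceride genes, which handle the solute of Aqp3, Aqp7 and Aqp9, had a median of -0.28 over 11 measured genes. Of these 9 had negative differences and 1, the triglyceride synthesis enzyme Dgat2, was at least 1.5-fold lower (340.9 and 198.5, 1.72-fold). Among all genes past the filter 2.43% were lower by as much, so a count of 1 singles out no change of the list. Fat cell genes had a median of 0.18 over the 10 measured of 12, and of -0.08 over the 6 past the filter. Of the 10 differences 6 were positive and 4 negative, down to -0.56. Only the fat cell carbonic anhydrase Car3 reached 1.5-fold, at 190.8 and 288.6 (1.51-fold higher) on the brighter of its 2 probe sets. Among all genes past the filter 4.02% were higher by 1.5-fold or more. The defining marker Adipoq was dim, at 27.2 and 31.7, as was Aqp7 on both arrays.

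Markers of tissues that could add other aquaporins to a colon sample were mostly dim. Of 12 neutrophil and monocyte genes, which would come with Aqp9, 1 passed the filter, Ly6g, at 90.8 and 137.2 (1.51-fold higher), and the median was 0.05. Squamous epithelium, a site of strong Aqp3 expression, had 2 of 10 measured genes past the filter and a median of -0.09. The brightest was Perp, at 1135 and 759, a gene that is also made by the colon, while the basal keratin Krt14 gave 36.9 and 38.1. Both Aqp9 and Aqp3 were dim on the same arrays.

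Hox genes, which mark position along the gut, were recorded because aquaporin expression varies along the colon. The posterior list had a median of 0.23 over 9 measured genes, of which only 2 passed the filter and 7 were dim. The anterior and central list had a median of -0.11 over 12, of which 8 passed. None of either list reached 1.5-fold, and 93.6% of all genes past the filter lay within it. Hoxd10 gave 120.2 and 176.5 and Hoxb6 gave 892 and 791. The part of the sampled stretch of colon in the aquaporin differences was not tested.

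**Figure D4:**
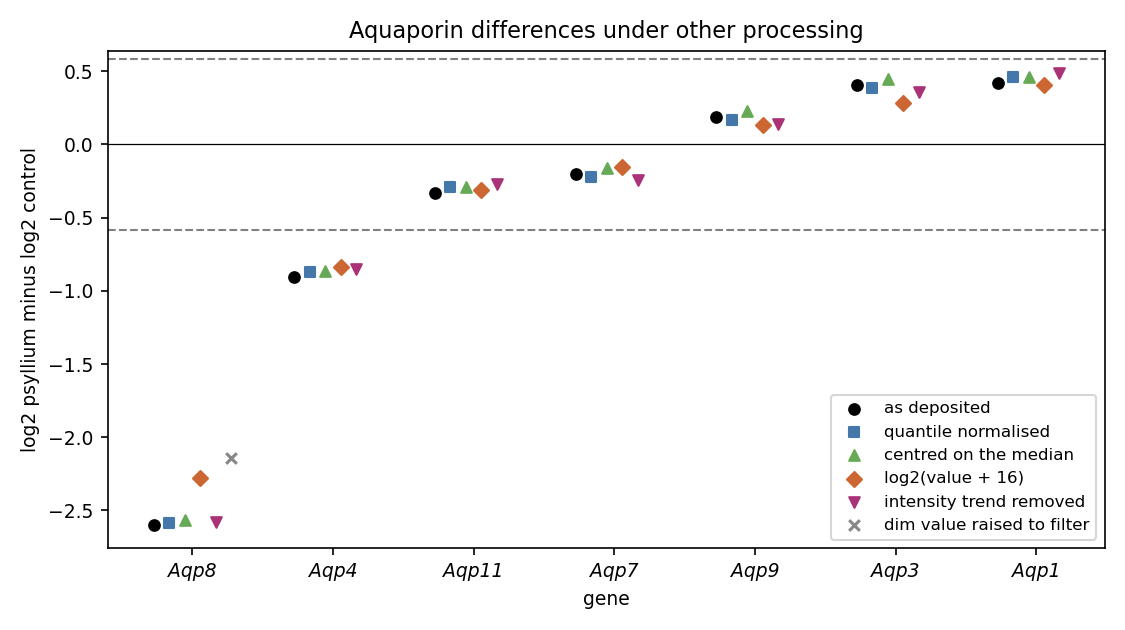
Log2 difference (psyllium minus control) of each aquaporin member as deposited and under other processing, with 1.5-fold as dashed lines. Aqp8 lies between -2.60 and -2.14 and Aqp4 between -0.91 and -0.84 in each setting drawn, and no other member leaves the band between the lines.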

How the data were processed

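Per the labels' protocols, total mouse colon RNA was put on whole-transcript arrays after biotin labelling, 1 for each of 2 diets. The values deposited by the authors are normalised intensities, linear in scale, with 1 per probe set. The submitters' processing notes name RMA and Affymetrix Expression Console and give no version of either. Whether the intensities are the antilogarithm of RMA output, and the build used, are not given in the sources used here. If the arrays' distributions were equalised, as RMA usually does, a difference is measured against the typical transcript.

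Of 41345 probe sets 23521 name 1 gene in GEO's platform annotation, and 23328 of these matched a RefSeq gene number (GRCm38.p6). A gene with several probe sets took the one with the highest mean. Intensities, all above 0, were converted to log2 without a pseudocount. Calculations used Python 3.11.15, numpy 2.4.6, pandas 2.3.3 and statsmodels 0.14.6, and the calling step was tested on simulated data. RefSeq promoter windows matched 6 of the 7 members.

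The members and the 17 gene lists were chosen with earlier results of these data known. All aquaporins were named, with, from each other list, at most 4 genes that passed the filter and differed by 1.5-fold or more, taken by size, and the 1 brightest gene where there were none. For each member at least 1.5-fold different, the 4 genes with the closest difference were named, without predicted genes, small RNAs and receptor segments. Further genes (Car1, Slc26a3, Nfat5, Vipr1, Vipr2, S100b, Sox10, Gfap, Adipoq, Krt14, the vasopressin receptors, Kcnma1) are extra and were chosen after values were seen. Alternatives were quantile normalisation, median centring, a pseudocount of 16, removal of the intensity trend, the mean of probe sets, no filter, and a filter on both arrays.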

Additional observations from a re-analysis of the deposited data

How the results depend on the processing

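The count of members at least 1.5-fold lower was 2 under 6 of the 7 alternatives and 1 when both arrays had to pass the filter, since Aqp8 then drops out on its psyllium value. The count of those higher was 0 under all 7. Each member kept its sign and its side of 1.5-fold under the 5 alternatives that recompute a difference. Aqp8 ranged from -2.60 to -2.28, Aqp4 from -0.91 to -0.84, Aqp11 from -0.33 to -0.27 and Aqp1 from 0.40 to 0.48. Each member has 1 probe set, so the mean of probe sets repeats its value. Among list medians, those of the cyclic AMP, endothelial and glial lists, all near 0, changed sign under at least 1 alternative. Where both arrays had to pass, the neutrophil list was left with Ly6g alone (0.60), the squamous list with Perp alone (-0.58) and the red cell list with no gene. The posterior Hox median was then 0.45, from Hoxd10 and Hoxd11 alone, and the anterior one -0.06. That of ion transport was 0.09 and that of the other aquaporins 0.07. The number of arrays limits all of this: no alternative stands in for a second animal or array.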

Other observations

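The measured genes that flank the aquaporins on the chromosome lay within 1.5-fold, as most genes on the arrays did. The nearest protein-coding gene on each side was taken from the RefSeq gene table. Of the flanking genes that are no member 10 were measured, 4 of them past the filter, and none reached 1.5-fold, with differences from -0.25 to 0.41. Among all genes past the filter 93.6% lay within 1.5-fold, so this count is near the common share. Lcmt1, beside Aqp8, gave 174.6 with the control diet and 172.2 with psyllium, and Zkscan2, on its other side, was dim at 11.6 and 15.5. Kctd1 and Chst9, on either side of Aqp4, were also dim and differed by 0.05 and -0.16. Aqp3 and Aqp7 are neighbours themselves and differed by 0.41 and -0.20, both from dim signals. These comparisons were chosen after the members' values were seen.

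The promoter windows of the remaining members with a RefSeq entry differed in base composition. Aqp11 and Aqp3 had 27 and 21 CpG in 300 bases, at 68% and 64% G and C, beside 6 CpG and 52% for Aqp8. The pair of Aqp9 windows had 4 and 1 CpG, and those of Aqp7 had 3 and 0. Of the 6 members with a window Aqp3 was the only one with TATAAA, 29 bases before its start.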
